A study of Rattus norvegicus with 6 samples.

Results

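The genes described here are 30 p53 targets and DNA repair genes, measured in rat liver after phenolphthalein or its vehicle. Members were taken as the array probes whose RefSeq accession belongs to 1 of the 30 genes, which gave 47 probes of the 61657 on each array other than controls. Of the 30 genes, 27 had a probe and 25 were tested, out of 11434 genes tested in all. Eda2r, a death receptor of the TNF receptor family, Sesn1, a sestrin, and Ddb2, a damage sensor of nucleotide excision repair, had no matched probe and were not analysed here. Pmaip1, which codes for the pro-apoptotic protein Noxa, and Brca1, a homologous recombination gene, had 1 probe each that was well above background on 0 of 6 arrays, so no fold is given for them.

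All 6 animals were male Sprague-Dawley rats, bought at 5 weeks of age. Corn oil was given to 3 animals and phenolphthalein at 1000 mg per kg per day to the other 3, and liver RNA of each animal was hybridised to 1 array. The treatment protocol speaks of 9 weeks of dosing and the design text of 28 days, so the length of exposure is not settled. Corn oil arrays shared a slide and scan session and phenolphthalein arrays another, so a treatment effect and a slide or scan effect cannot be told apart in what follows. Values are log2 signals relative to the array's 75th percentile, and a fold change is phenolphthalein over corn oil. The hepatocyte markers Alb, Apoa1, Ttr, Tf, Serpina1, Cps1, Fgb and Hnf4a were well above background, with a median log2 fold change of 0.04 over the 8 genes. Cyp2b1, a cytochrome P450 read as a measure of the response to the compound, was 12.2-fold higher with phenolphthalein (limma adjusted p = 0.0108). Cyp2b1 is among the genes past the threshold in these same data and shares the limit of slide and scan. It is therefore no independent sign that the compound acted. Cyp2b1 stayed between 3.46 and 3.83 on the log2 scale without any 1 array, but its adjusted p was above 0.05 in 5 of those 6 fits, all but the one without phenolphthalein replicate 3, and reached 0.108.

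The transcription factor p53 is held low in healthy cells by the ubiquitin ligase Mdm2, which is itself a p53 target. When DNA is damaged, kinases such as Atm and Chek1 relieve that control, and p53 switches on genes that stop the cell cycle, aid repair or promote cell death. In rodent liver, genotoxic carcinogens are known to raise a recurrent set of these transcripts, among them Cdkn1a, Mdm2, Ccng1, Btg2, Phlda3 and Aen. Phenolphthalein, a former laxative drug, is a carcinogen in rodent bioassays and is known to induce micronuclei in mice. The comparison therefore asks whether that response was visible in the liver RNA of dosed rats.

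The promoters of 3 members are shown as examples of those that carry the p53 half-site close to a start of transcription. This 10-letter consensus is bound by p53 as tandem copies. The half-site is its own reverse complement, so a single search reads both strands. The windows run from 250 bases before to 50 bases after the RefSeq start, on assembly GRCr8, and capitals mark the half-site match. Cdkn1a is on the plus strand at chr20:7150682-7150981, Gadd45a on the minus strand at chr4:97486750-97487049 and Aen on the plus strand at chr1:142224283-142224582.
Cdkn1a: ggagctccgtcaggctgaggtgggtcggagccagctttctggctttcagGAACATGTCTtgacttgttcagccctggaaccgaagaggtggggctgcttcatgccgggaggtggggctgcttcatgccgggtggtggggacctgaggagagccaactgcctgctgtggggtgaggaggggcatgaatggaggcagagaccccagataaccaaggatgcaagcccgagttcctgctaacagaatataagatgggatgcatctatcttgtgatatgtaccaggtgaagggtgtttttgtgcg
Gadd45a: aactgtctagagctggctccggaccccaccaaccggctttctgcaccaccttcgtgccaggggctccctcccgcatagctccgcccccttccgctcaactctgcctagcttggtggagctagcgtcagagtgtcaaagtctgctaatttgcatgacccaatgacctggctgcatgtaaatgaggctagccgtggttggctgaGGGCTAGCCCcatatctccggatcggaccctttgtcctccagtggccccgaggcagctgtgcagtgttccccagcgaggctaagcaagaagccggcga
Aen: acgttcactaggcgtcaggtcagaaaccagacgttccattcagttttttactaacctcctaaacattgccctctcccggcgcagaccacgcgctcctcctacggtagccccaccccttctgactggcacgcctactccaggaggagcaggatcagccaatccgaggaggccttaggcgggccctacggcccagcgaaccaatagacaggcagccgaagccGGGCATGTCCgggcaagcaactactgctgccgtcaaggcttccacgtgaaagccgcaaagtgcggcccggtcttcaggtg
The match began 201 bases before the start in Cdkn1a, 48 in Gadd45a and 30 in Aen. A match was found in 6 of the 24 members with a promoter in the table, the others being Ccng1, Ei24 and Sesn1, and in 7.98% of the 33469 rat promoters of the same length. The matches of Ccng1, Ei24 and Sesn1, not shown, began 232, 79 and 172 bases before the start. A match is a sequence description and not a measured site.

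No member passed the test. In limma, adjusted over all 11434 genes, 0 of the 25 tested members were higher or lower at an adjusted p under 0.05, against 7 genes or 0.0612% of all genes, and the smallest adjusted p of a member was 0.172. At an unadjusted p under 0.05 there were 2 members, Parp1 higher and Fas lower, which is 8% of the 25 beside 15.3% of all genes, made up of 7.16% higher and 8.11% lower. With arrays centred on their medians the count was 1, without Fas, or 4% beside 19.8% of all genes. With normexp background correction it was 3 with Plk3 added, or 12% beside 17.2%. Without corn oil replicate 2 it was also 3 with Plk3 added, or 12% beside 13%. Without phenolphthalein replicate 3 it was 3, or 12% beside 14.1%, so the distance to all genes depended on the setting. The median log2 fold change of the members was 0.08 beside 0.01 over all genes, and 16 of 25 had a higher mean, or 64%, beside 51.8% of all genes. Centring each array on its median instead set the median of all genes at 0.09 and that of the members at 0.16, so small counts of higher and lower means here and in the lists below depend on the scaling. All 25 members were well above background on all 6 arrays, so none entered the test through 1 group alone. On the brightest probe and in the main setting, no member differed by over 1.5-fold, beside 6.62% of all genes. Other settings went past 1.5-fold for some members. Centring arrays on their medians gave Parp1 a log2 fold change of 0.60. Leaving out 1 array gave up to 0.63 for Parp1 and 0.64 for Gadd45a, and down to -0.82 for Ddit4.

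**Figure D1:**
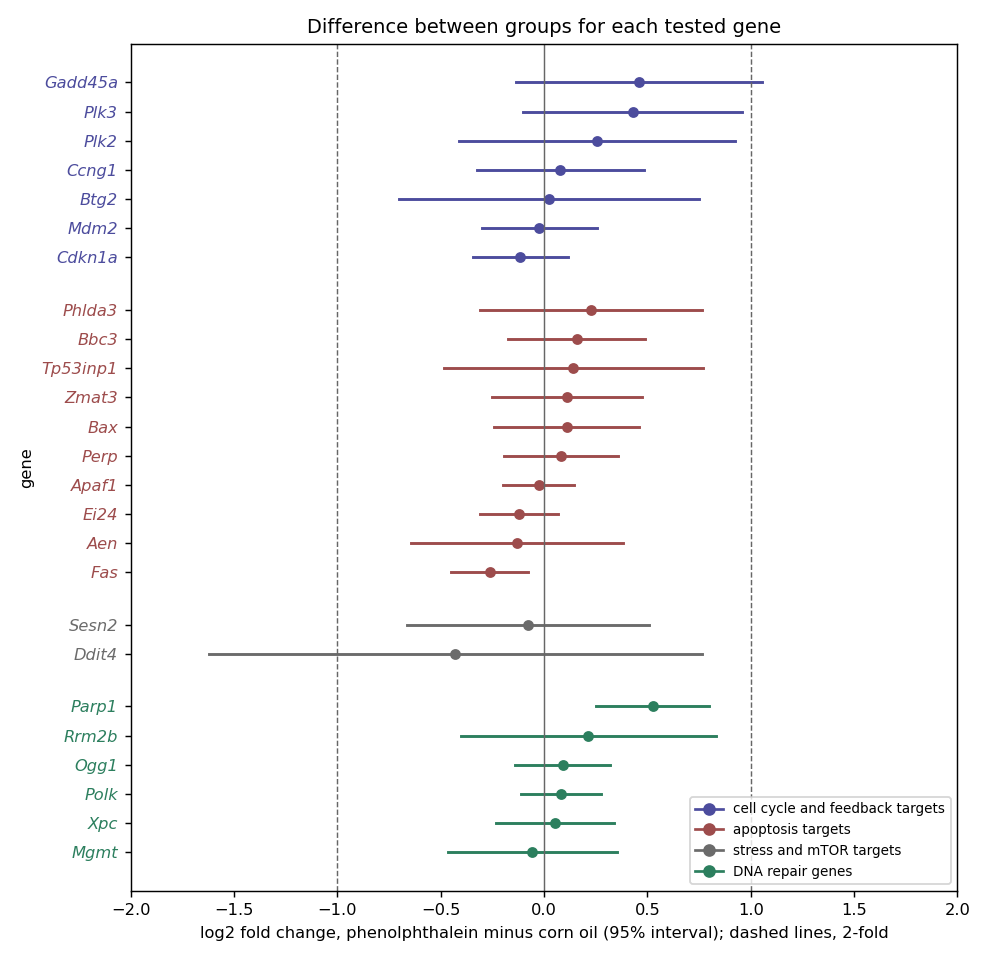
Log2 fold change, phenolphthalein minus corn oil, for each of the 25 tested genes with limma's 95% interval, coloured by role, 3 arrays per group. The intervals of 23 genes, each from the brightest probe, lie inside the dashed 2-fold lines, and those of Gadd45a and Ddit4 cross a line.

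The precision of the estimates differed from gene to gene. On the brightest probe, the 95% interval lay within 2-fold in both directions for 23 of 25 members and within 1.5-fold for 14. Dimmer probes were not counted, and those of Cdkn1a and Plk3 had an SE of up to 0.98 and 0.33 log2 units. The exceptions at 2-fold were Gadd45a, with an upper bound of 2.07-fold, and Ddit4, with a lower bound of 0.325-fold. These intervals are not adjusted for the number of genes, and they cover the spread between animals only. With 3 arrays per group an exact two-sided permutation test of a single gene cannot give a p below 0.1.

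Cdkn1a codes for p21, the inhibitor of cyclin-dependent kinases that halts the cell cycle. Its brightest probe, which stood for the gene, read 6.20, 6.05 and 6.03 with corn oil and 5.88, 5.96 and 6.10 with phenolphthalein, in the order of replicate numbers, as for every gene that follows. The groups overlapped, and the log2 fold change was -0.11 ± 0.09 (SE, limma adjusted p = 0.597). The 2 other probes behaved differently from array to array. The second probe read 2.57, 3.47 and 1.89 with corn oil and 3.83 and 1.01 on phenolphthalein replicates 2 and 3, while its spot on phenolphthalein replicate 1 carried an outlier mark and was left out of the fit. That spot would have read 0.36, the lowest of the 6, where the third probe had its second highest value. The third probe read -4.46, -3.53 and -5.79 with corn oil and -2.96, -2.23 and -5.50 with phenolphthalein, and was well above background on 2 of 3 arrays of each group. On the 5 arrays that both measured, both were highest on phenolphthalein replicate 2, followed by corn oil replicates 2 and 1, and lowest on the third replicates. Across arrays the second probe spanned 7.05-fold and the third 11.8-fold, against 1.25-fold for the brightest. The SD within groups was 1.52 and 1.46 log2 units for these 2 probes, larger than for 99.3% and 99.2% of all tested probes. Their log2 fold changes were -0.22 ± 0.94 and 1.03 ± 0.98 (SE), with limma adjusted p of 0.931 and 0.653 over all probes. The tight interval of Cdkn1a, 0.787 to 1.08-fold, thus belongs to the brightest probe alone.

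**Figure D2:**
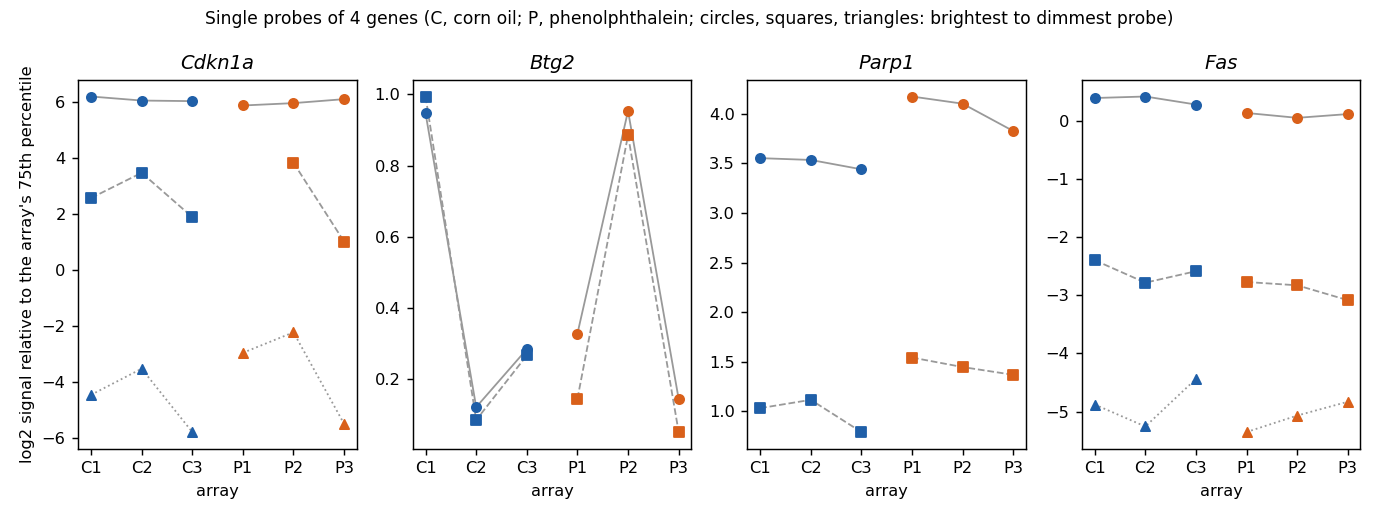
Log2 signal of every probe of Cdkn1a, Btg2, Parp1 and Fas on corn oil arrays C1 to C3 and phenolphthalein arrays P1 to P3, each panel on its own scale, with lines joining arrays of 1 group for the eye. The dimmer Cdkn1a probes move by several log2 units between animals while the brightest stays between 5.88 and 6.20, and both Parp1 probes lie higher on every phenolphthalein array.

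Mdm2, the ligase that closes the feedback loop on p53, read 0.73, 0.39 and 0.44 with corn oil and 0.54, 0.42 and 0.52 with phenolphthalein. The corn oil range enclosed all phenolphthalein arrays, and the log2 fold change was -0.02 ± 0.11 (SE), with an interval of 0.811 to 1.19-fold. The dimmer probe of Mdm2 read -1.78, -1.57 and -1.84 with corn oil and -1.54, -1.50 and -1.33 with phenolphthalein, all above corn oil, with a log2 fold change of 0.28 ± 0.11 (SE, limma adjusted p = 0.336). The probes of Mdm2 differed in sign, and neither passed.

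Ccng1, cyclin G1, a long-used marker of p53 activity in rat liver, read 0.92, 0.60 and 0.63 with corn oil and 0.55, 1.08 and 0.76 with phenolphthalein. Its highest and its lowest array were both phenolphthalein animals, and the log2 fold change was 0.08 ± 0.16 (SE, limma adjusted p = 0.85). Its other probe gave -0.14 ± 0.17 (SE). Btg2, an antiproliferative gene, read 0.95, 0.12 and 0.28 with corn oil and 0.33, 0.95 and 0.14 with phenolphthalein. A single animal of each group stood high, and the second Btg2 probe placed corn oil replicate 1 and phenolphthalein replicate 2 highest too, at 0.99 and 0.89. The group difference of 0.02 ± 0.30 (SE) was therefore small beside the spread between animals, 0.44 and 0.42 (SD, n = 3 each).

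The growth arrest gene Gadd45a and the polo-like kinases Plk2 and Plk3 had the highest estimates among the cell cycle targets. Gadd45a read 1.13, 1.32 and 1.71 with corn oil and 2.26, 1.80 and 1.48 with phenolphthalein. The groups overlapped at phenolphthalein replicate 3, which lay below corn oil replicate 3, and the log2 fold change was 0.46 ± 0.24 (SE, limma adjusted p = 0.422). Leaving out 1 array moved it from 0.25, without phenolphthalein replicate 1, to 0.64, without phenolphthalein replicate 3. Plk3 read -0.88, -0.64 and -1.32 with corn oil and -0.21, -0.68 and -0.67 with phenolphthalein. Only phenolphthalein replicate 1 of Plk3 lay clear of all corn oil arrays, and the log2 fold change was 0.43 ± 0.22 (SE, limma adjusted p = 0.405). The second Plk3 probe gave 0.45 ± 0.33 (SE). Plk2 read 0.43, -0.15 and 0.92 with corn oil and 0.73, 0.48 and 0.76 with phenolphthalein, within the corn oil range. Over the 7 cell cycle and feedback targets, 5 had a higher mean, the median log2 fold change was 0.08, and 0 passed or had an unadjusted p under 0.05.

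**Figure D3:**
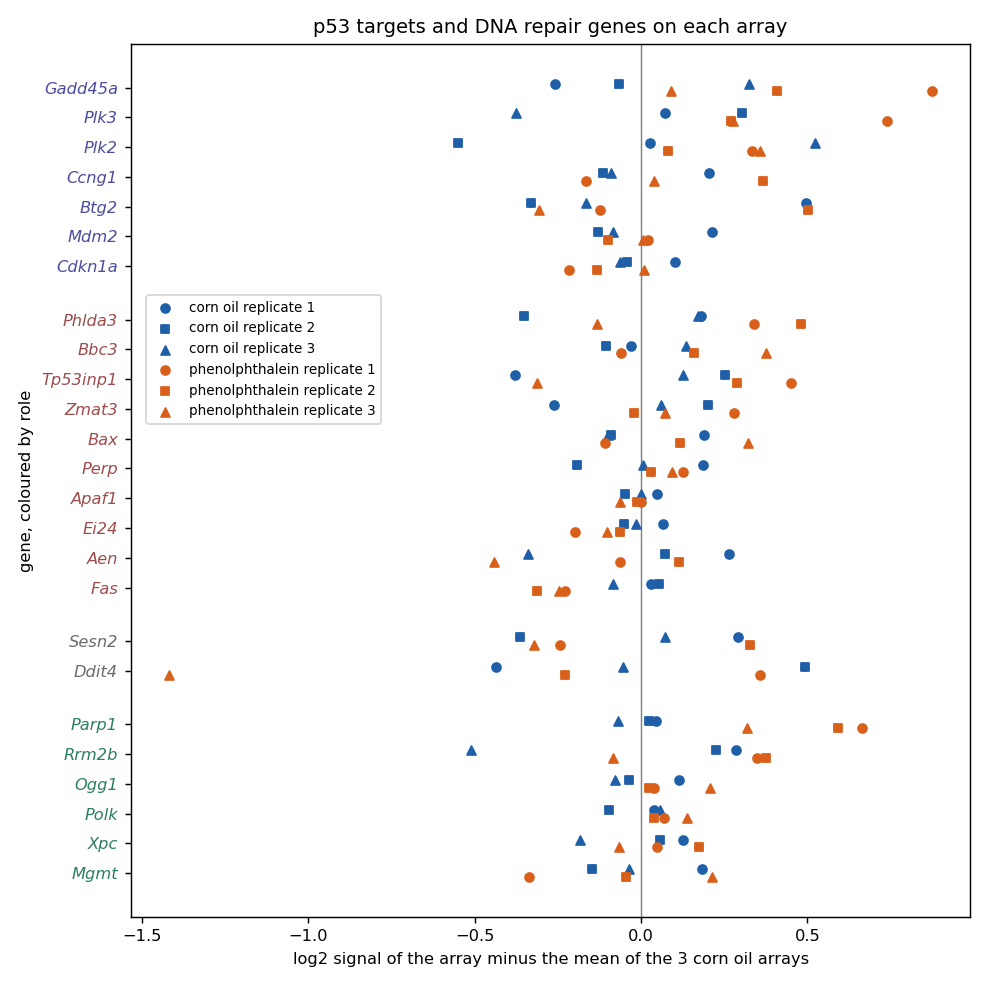
Log2 signal of each tested gene on each array minus that gene's mean over the 3 corn oil arrays, with blue marks for corn oil and orange for phenolphthalein. The groups are separate for Parp1, Fas and Ei24 and overlap for all other genes shown.

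Among the apoptosis targets, 10 of 12 were tested, and their median log2 fold change was 0.10, with 6 higher and 4 lower means. Bax, the pore-forming protein of the mitochondrial outer membrane, read 0.31, 0.03 and 0.02 with corn oil and 0.01, 0.24 and 0.44 with phenolphthalein, so the groups overlapped. Bbc3, which codes for the BH3-only protein Puma, read 1.95, 1.88 and 2.11 with corn oil and 1.92, 2.14 and 2.35 with phenolphthalein. The log2 fold change was 0.11 ± 0.14 (SE) for Bax and 0.16 ± 0.13 for Bbc3. Phlda3, a repressor of Akt signalling, read -0.50, -1.03 and -0.51 with corn oil and -0.34, -0.20 and -0.81 with phenolphthalein, a log2 fold change of 0.23 ± 0.22 (SE). Phenolphthalein replicates 1 and 2 were above all corn oil arrays, and replicate 3 lay among them.

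Aen, an apoptosis-enhancing nuclease, read 4.13, 3.93 and 3.52 with corn oil and 3.80, 3.98 and 3.42 with phenolphthalein, a log2 fold change of -0.13 ± 0.21 (SE). Its 2 other probes gave 0.07 ± 0.10 and 0.01 ± 0.14. Tp53inp1, which aids autophagy and cell death, had a log2 fold change of 0.14 ± 0.26, the RNA-binding gene Zmat3 one of 0.11 ± 0.15 and the membrane protein gene Perp one of 0.08 ± 0.11 (SE). Apaf1, the scaffold of the apoptosome, had one of -0.03 ± 0.07, with the narrowest interval of the 25 members, 0.872 to 1.11-fold. Its second probe gave 0.26 ± 0.12 (SE, limma adjusted p = 0.38). Ei24, an endoplasmic reticulum protein gene induced by p53, read 1.82, 1.71 and 1.74 with corn oil and 1.56, 1.70 and 1.66 with phenolphthalein. All phenolphthalein arrays of Ei24 were below corn oil by a small step, a log2 fold change of -0.12 ± 0.08 (SE, limma adjusted p = 0.495).

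Fas codes for the death receptor CD95, which hepatocytes and leukocytes both carry. It read 0.39, 0.42 and 0.28 with corn oil and 0.14, 0.05 and 0.12 with phenolphthalein. Every phenolphthalein array lay below every corn oil array, as for 2 of 25 members, Fas and Ei24, beside 11% of all genes. The log2 fold change was -0.26 ± 0.08 (SE), or 0.833-fold, with an unadjusted p of 0.0137 and a limma adjusted p of 0.239. The 2 dimmer probes gave -0.31 ± 0.14 and -0.23 ± 0.24 (SE), so all 3 had the same sign. Leaving out 1 array moved the estimate between -0.30 and -0.24. Centring arrays on their medians gave -0.18, no longer with an unadjusted p under 0.05.

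Leukocyte markers differed between the arms in the same direction as Fas. The mean was lower for 10 of 10 Kupffer cell and macrophage markers, with a median log2 fold change of -0.62, and their summed linear signal was 184 to 261 times the array's 75th percentile with corn oil and 136 to 178 with phenolphthalein. For 8 of 8 tested lymphocyte markers the mean was lower as well, with a median of -0.47 and sums of 3.98 to 4.59 against 2.72 to 3.28. None of these 18 markers passed, and their smallest limma adjusted p was 0.154. Lower means were not confined to leukocyte markers. Stellate cell markers had a lower mean for 6 of 6 genes, with a median of -0.19. Sinusoidal endothelial markers had one for 3 of 3 tested genes, with a median of -0.08, and none of either list passed. In bulk RNA, fewer cells of a type and less RNA per cell cannot be told apart. The part of these cells in the difference of Fas was not tested.

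The stress targets, which restrain the growth kinase mTOR, were represented by Sesn2 and Ddit4. Ddit4 read -0.12, 0.81 and 0.26 with corn oil and 0.67, 0.09 and -1.10 with phenolphthalein, where phenolphthalein replicate 3 stood apart at the low end. Its log2 fold change of -0.43 ± 0.49 (SE) became 0.06 without that array. The SD of Ddit4 within groups, 0.72 log2 units, was larger than that of 96.6% of genes. Its 2 dimmer probes gave -0.25 ± 0.44 and -0.02 ± 0.41 (SE). Sesn2 read -0.69, -1.34 and -0.91 with corn oil and -1.22, -0.65 and -1.30 with phenolphthalein, fully overlapping.

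Of the 8 repair genes 6 were tested, and Parp1 had the largest difference of all members. Parp1 codes for the enzyme that senses DNA strand breaks and marks them with poly(ADP-ribose). It read 3.55, 3.54 and 3.44 with corn oil and 4.17, 4.10 and 3.83 with phenolphthalein. All 3 phenolphthalein arrays were above all corn oil arrays, as for 1 of 25 members beside 12.2% of all genes. The log2 fold change was 0.52 ± 0.11 (SE), or 1.44-fold with an interval of 1.19 to 1.74, and it exceeded that of 97.4% of all genes tested. The unadjusted p was 0.00343 and the limma adjusted p 0.172, so Parp1 did not pass over all genes. A second Parp1 probe read 1.03, 1.12 and 0.79 with corn oil and 1.54, 1.45 and 1.37 with phenolphthalein. It too separated the groups, with a log2 fold change of 0.47 ± 0.11 (SE, limma adjusted p = 0.208 over all probes). The estimate ran from 0.45 to 0.63 when 1 array was left out, and the smallest adjusted p over all settings was 0.144. Of 43 member probes past the filter, 4 had an unadjusted p under 0.05, both of Parp1, the brightest of Fas and the dimmer of Mdm2, and 0 passed, beside 14.4% and 0.0614% of all probes.

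The other repair genes had smaller estimates than Parp1, and groups that overlapped. Ogg1, the glycosylase that removes oxidised guanine, read 1.35, 1.20 and 1.16 with corn oil and 1.27, 1.26 and 1.44 with phenolphthalein, a log2 fold change of 0.09 ± 0.09 (SE). Polk, a lesion bypass polymerase, had one of 0.08 ± 0.08 and Xpc, the damage recogniser of nucleotide excision repair, one of 0.05 ± 0.12. Mgmt, which removes alkyl groups from guanine, read 3.68, 3.35 and 3.46 with corn oil and 3.15, 3.45 and 3.71 with phenolphthalein, so that the lowest and the highest array were both phenolphthalein animals. The estimate for Rrm2b, the p53-inducible ribonucleotide reductase subunit, was 0.21 ± 0.25 (log2, SE), and its values of -4.92 to -4.04 came from a probe that was well above background on all arrays. The upper bounds were 1.25-fold for Ogg1, 1.21-fold for Polk, 1.26-fold for Xpc, 1.28-fold for Mgmt and 1.78-fold for Rrm2b.

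Several members varied more between animals of 1 group than between groups. The median SD within groups was 0.20 log2 units over the 25 members and 0.15 over all genes. It was largest for Ddit4, Btg2, Plk2, Tp53inp1, Rrm2b, Gadd45a and Sesn2, from 0.72 down to 0.34, and smallest for Apaf1, Fas, Ei24 and Polk, from 0.04 to 0.07. Probes of 1 gene gave different signs for 8 of the 14 members with more than 1 probe past the filter. The 6 members whose probes shared a sign were Parp1, Plk3, Polk and Xpc on the higher side and Fas and Ddit4 on the lower.

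The rest of the pathway was read from 8 lists of signalling, target and repair genes, with 92 genes tested of 125 listed beside the members. None of the 92 passed in limma over all genes. At an unadjusted p under 0.05, 5 were higher and 7 lower, 13% of the 92 beside 15.3% of all genes. With arrays centred on their medians these shares were 25% and 19.8%, and with normexp background correction 19.6% and 17.2%, so their order depended on the setting. Without phenolphthalein replicate 3 it was 18 of the 92, or 19.6%, beside 1615 of the 11434 genes, or 14.1%. Without phenolphthalein replicate 2 it was 7 of the 92, or 7.61%, beside 1226 of the 11434 genes. The count over all genes thus moved in the same direction as that of the 92. Over the 92 genes the median log2 fold change was 0.05. For Atm, the damage kinase, the log2 fold change was 0.37 ± 0.21 (SE), with phenolphthalein replicate 2 highest at -2.66 against -3.54 to -3.42 in corn oil. For the checkpoint kinase Chek1 it was 0.05 ± 0.17.

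**Figure D4:**
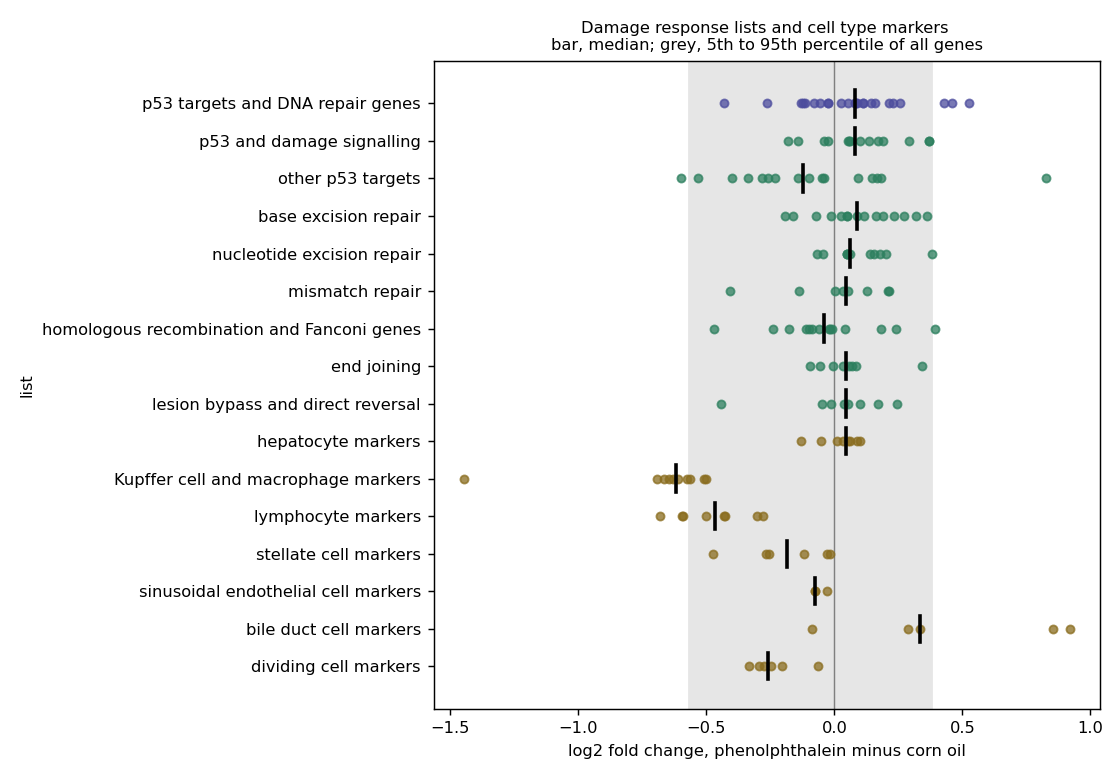
Log2 fold change of each tested gene in the member set, 8 pathway lists and 7 marker lists, with a bar at each median and the 5th to 95th percentile of all genes, -0.57 to 0.38, in grey. Medians of the pathway lists lie between -0.12 and 0.09, while Kupffer cell and lymphocyte markers lie lower, at -0.62 and -0.47.

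Usp7, the deubiquitinase that stabilises both Mdm2 and p53, had the smallest p of the 92. It read 1.96, 1.87 and 2.00 with corn oil and 2.38, 2.28 and 2.28 with phenolphthalein, with separate groups and a log2 fold change of 0.37 ± 0.08 (SE, limma adjusted p = 0.172). The acetyltransferase gene Kat5 had one of 0.14 ± 0.08. Over the 14 signalling genes tested the median was 0.08, with 10 higher and 4 lower means.

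Other p53 targets had a median of -0.12 over 16 genes, with 5 higher and 11 lower means, and 4 of the lower ones had an unadjusted p under 0.05, or 25% of the list beside 8.11% of all genes. The autophagy gene Dram1 read -2.91, -2.63 and -2.93 with corn oil and -3.41, -3.55 and -3.12 with phenolphthalein. Log2 fold changes were -0.53 ± 0.14 for Dram1, -0.34 ± 0.09 for the mitochondrial quality control gene Spata18 and -0.40 ± 0.12 for Tp53i11 (SE), each with limma adjusted p of 0.228 to 0.242. All phenolphthalein arrays were below all corn oil arrays for these 3 genes, and for 4 of the 16 in the list, beside 11% of all genes. Kupffer cell and lymphocyte markers were lower on the same arrays, and their part in these differences was not tested.

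Base excision repair, which handles small base lesions and works with Parp1 at strand breaks, had a median of 0.09 over 15 genes, 11 of them with a higher mean. Apex1, the endonuclease that cuts at abasic sites, read 3.68, 3.99 and 3.66 with corn oil and 4.16, 4.16 and 4.08 with phenolphthalein, a log2 fold change of 0.36 ± 0.11 (SE, limma adjusted p = 0.25). The flap endonuclease Fen1 had one of 0.27 ± 0.11 and the thymine glycosylase Tdg one of 0.32 ± 0.14. Nucleotide excision repair had a median of 0.06 over 11 genes, with 0.38 ± 0.12 for the helicase Ercc2, 0.15 ± 0.07 for its partner helicase Ercc3 and 0.20 ± 0.10 for Rad23b, which partners Xpc. Neither list had a member past the threshold.

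The remaining repair routes showed single genes in both directions. In mismatch repair, with a median of 0.04 over 8 genes, Msh3 read 1.06, 0.82 and 0.78 with corn oil and 0.41, 0.49 and 0.55 with phenolphthalein. The groups of Msh3, a subunit of the complex that recognises insertion loops, were separate, with a log2 fold change of -0.41 ± 0.10 (SE, limma adjusted p = 0.207). Mlh3 and Pms1, mismatch repair subunits, had log2 fold changes of 0.21 ± 0.08 and 0.21 ± 0.11. As the mean of its probes, Mlh3 gave -0.55. In end joining, with a median of 0.05 over 8 genes, the Ku subunit gene Xrcc5 had one of 0.34 ± 0.11 and its partner subunit Xrcc6 one of -0.10 ± 0.08, with 0.08 ± 0.07 for the polymerase Polm.

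Homologous recombination and Fanconi genes had a median of -0.04 over 14 genes, 10 of them with a lower mean. Log2 fold changes were -0.18 ± 0.07 for Fance, -0.47 ± 0.20 for the recombination gene Rad51d and 0.39 ± 0.20 for the nuclease Mre11 (SE). Lesion bypass and direct reversal genes had a median of 0.05 over 8 genes, with -0.44 ± 0.16 for Mad2l2, a subunit of polymerase zeta, and 0.24 ± 0.11 and 0.10 ± 0.11 for the ubiquitin-conjugating enzymes Ube2b and Ube2a. Markers of dividing cells had a lower mean for 6 of 6 tested genes, with a median of -0.26 and sums of 1.96 to 2.90 with corn oil and 1.91 to 2.35 with phenolphthalein, and none passed. Bile duct markers had a higher mean for 4 of 5 tested genes, with a median of 0.33, and none passed, with sums of 1.63 to 1.78 with corn oil and 2.08 to 2.15 with phenolphthalein. The part of these cells in the differences of repair genes, Parp1 included, was not tested.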

How the data were processed

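Each animal's liver RNA carried Cy3 and was read on its own Agilent array, per the labels. Scanner files as deposited give spot intensity from Agilent Feature Extraction (10.7 per the submitters' processing notes, 10.7.1.1 per the file headers), background-subtracted and not scaled between arrays. In the authors' deposited value table, each array's intensity had been divided by a constant, to within 0.00501% over spots brighter than that constant. Dimmer spots were not part of that check. Its scale is linear and not centred per gene, and its column medians were 0.0941 to 0.102.

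Signals were taken as log2 minus each array's 75th percentile over the 61657 spots other than controls, which was 551 to 636. No such spot was saturated, 4 to 14 per array carried an outlier mark and were set missing, and 62.1% to 65.1% were well above background. The filter kept probes well above background on 3 or more of the 6 arrays, and probes were named through unversioned RefSeq accessions (GRCr8, names alone; the array was designed on rn4), 27460 of them with 1 gene and 34197 with none. The brightest probe stood for a gene. Limma 3.58.1 (R 4.3.3) compared phenolphthalein with corn oil, with Benjamini-Hochberg adjustment at 0.05, and each probe was also tested in a fit over all named probes. The number of arrays limits the precision.

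Members and lists were chosen with earlier results of these data known. Named genes are all members, the 3 smallest p of each pathway list, and Atm, Chek1 and Cyp2b1, and the whole hepatocyte list is named; an item covered by the rule is not reported here.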

Additional observations from a re-analysis of the deposited data

How the results depend on the processing

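The count of 0 members past the threshold held in all 16 alternative settings, as did the counts of 0 for member probes (15 settings) and for the other pathway genes. The adjusted p of Parp1 ran from 0.144 to 0.414 and that of Fas from 0.216 to 0.464. The median log2 fold change of members ran from 0.02 to 0.16, positive throughout, and the median shift, which moved all genes up, gave 0.16. By array, the groups overlapped in the members' median deviation from each gene's mean over all arrays. It was -0.12 to 0.10 with corn oil and -0.001 to 0.06 with phenolphthalein in the main setting. The 7 genes past the threshold became 0 with the replicate number as a block and 0 to 6 when 1 array was left out: 0 when the array was the first of either group or the third of corn oil, 1 when it was the second of either group, and 6 for the remaining array. Cyp2b1, which is among the 7, had an adjusted p of 0.167 with the block. Replicate numbers correlated by -0.025 to 0.017 across groups, and no array correlated best with its own number. Adjusted calls split into 6 higher and 1 lower, and 7 and 0 with quantile normalization. With a median shift, which set the median of all genes at 0.09, genes with an unadjusted p under 0.05 were 1721 higher and 542 lower, against 819 and 927.

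Of the 25 members, 10 kept their sign in every planned setting. The estimates of the others changed sign in at least 1 setting, none past the threshold with either sign, and the cause was not tested. With normexp the log2 fold changes were 0.0435 for Apaf1, -0.0038 for Btg2, 0.11 for Mdm2. A median shift gave 0.0536 for Apaf1, 0.0548 for Mdm2, 0.0225 for Mgmt, 0.000423 for Sesn2. The mean of a gene's probes gave 0.12 for Apaf1, -0.0318 for Btg2, -0.0304 for Ccng1, 0.12 for Cdkn1a, 0.13 for Mdm2. Leaving out 1 array gave -0.30 to 0.0254 for Aen, -0.21 to 0.27 for Btg2, -0.0639 to 0.20 for Ccng1, -0.82 to 0.0647 for Ddit4, -0.0893 to 0.0825 for Mdm2, -0.19 to 0.0843 for Mgmt, -0.0123 to 0.18 for Perp. It gave -0.0183 to 0.52 for Plk2, -0.0406 to 0.36 for Rrm2b, -0.28 to 0.0678 for Sesn2, -0.047 to 0.37 for Tp53inp1, -0.0398 to 0.12 for Xpc, -0.0201 to 0.21 for Zmat3. Of members that kept their sign, leaving out 1 array gave 0.24 to 0.58 for Plk3, 0.0535 to 0.41 for Phlda3, 0.00498 to 0.22 for Bax, 0.049 to 0.27 for Bbc3, 0.0316 to 0.15 for Ogg1, 0.0337 to 0.11 for Polk and -0.15 to -0.0824 for Ei24. Of the pathway genes named, Polm turned to -0.0226 with normexp, Mlh3 to -0.55 as the mean of its probes, and Chek1 ran from -0.0866 to 0.21 without 1 array. Normexp ran on the median spot signal, as the mean spot signal is not used here. The second-brightest Cdkn1a probe and the settings for probes, pathway lists and named genes that are no members were added after seeing the data.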
